A study of Mus musculus with 18 samples.

Results

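The 6 genes described here are astrocyte genes whose level differs between brain regions: Agt, Itih3, Slc6a11, Slc6a9, Slc7a10 and Mfge8. They were taken by symbol from the 50559 genes of a bulk RNA-seq count table of mouse brain, and 6 of 6 passed the filter on low counts that left 19513 genes for testing. The list was chosen by what is known of diencephalic and telencephalic astrocytes and with the values of these libraries known. The comparison that the choice looked at was that of libraries numbered 4 to 6 with libraries numbered 1 to 3 of the same group, so the members' values in it are given as a description, with no test. The rule has no threshold, so no gene lies just inside or outside it.

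The study has 18 libraries labelled as thalamus of wild-type mice, in 3 groups of 6. The intervene group received Coll IV and remodelin, an inhibitor of the RNA acetyltransferase NAT10. The model group received Coll IV alone, a name that the labels do not expand, and the control group received saline. The series title speaks of thalamic haemorrhage, and no group carries a transgene or a deletion. The labels state no time after treatment, age, sex, dose or number of animals. Nor do they say that each library is its own animal, so every p-value here measures the spread between samples that may share a source.

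Astrocytes carry a regional identity that is laid down when the neural tube is patterned. Telencephalic astrocytes, of cortex, hippocampus and striatum, express forebrain factors such as Lhx2 and much Mfge8. Astrocytes of thalamus, hypothalamus and brainstem express more Agt, Slc6a11 and Itih3, together with regional factors such as the Irx genes. Agt encodes angiotensinogen, the precursor of the angiotensin peptides, which in the brain is made chiefly by astrocytes. Slc6a11 encodes the GABA transporter GAT3, and Slc6a9 the glycine transporter GLYT1; both clear transmitter from around synapses. Slc7a10 encodes ASC-1, a carrier of glycine, serine and other small neutral amino acids. Itih3 encodes a heavy chain of the inter-alpha-trypsin inhibitors, which bind hyaluronan, and Mfge8 encodes lactadherin, a secreted bridge between phosphatidylserine on dying cells or debris and integrins of the engulfing cell.

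Libraries held 28481225 to 118461420 counts, with control replicate 1 the deepest, control replicate 5 at 56878946 and the other 16 at 36361681 or fewer. Levels are given as CPM, the counts of a gene scaled to library size by TMM, or as FPKM, which divides by gene length, where genes are set side by side. Markers of brain regions went against the thalamus label in libraries 4 to 6 of model and control. Tcf7l2, a transcription factor of thalamic neurons, had 4.79 to 10.5 CPM in model 4 to 6 and 53.6 to 144 CPM in model 1 to 3, and 3.82 to 5.05 CPM in control 4 to 6 and 98.6 to 102 CPM in control 1 to 3. Slc17a7, which loads glutamate into vesicles in cortical and hippocampal neurons, had 1585 to 1673 CPM in control 4 to 6 and 53.4 to 557 CPM in control 1 to 3. Irx2, a diencephalic and more caudal factor, had no count in control 4 to 6 and 10.3 to 17.0 CPM in control 1 to 3. Intervene libraries 4 to 6 still held 32.8 to 48.6 CPM of Tcf7l2, against 60.6 to 96.2 CPM in intervene 1 to 3. Their Slc17a7 was 512 to 1004 CPM, against 278 to 698 CPM in intervene 1 to 3. Numbers 4 to 6 and 1 to 3 are therefore called 2 sets here. The labels attach no meaning to them. Libraries 1 to 3 are no pure thalamic reference, since they held transcripts of other regions too. Control 1 to 3 had 71.1 to 140.1 CPM of Hcrt, a gene of hypothalamic neurons, and 288 to 2112 CPM over 9 striatal markers. Model 1 to 3 had 3194 to 5454 CPM of the choroid plexus transcript Ttr. General astrocyte transcripts were present throughout: the 22 pan-astrocyte markers summed to 8220 to 10600 CPM in intervene, 8227 to 9777 CPM in model and 8385 to 9442 CPM in control, with none at 0. Abundant genes weigh most in such a sum. The median log2 CPM of the markers averaged 7.675 in intervene 4 to 6, 7.24 in model 4 to 6 and 7.12 in control 4 to 6. In libraries 1 to 3 it averaged 7.53, 7.43 and 7.64 in these groups.

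Agt varied most of the 6 genes. In intervene it had 274, 105 and 116 CPM in replicates 4, 5 and 6, and 260.4, 124 and 293 CPM in replicates 1, 2 and 3. In model it had 52.5, 46.5 and 22.9 CPM in replicates 4, 5 and 6, and 119, 283 and 307 CPM in replicates 1, 2 and 3. In control it had 6.09, 4.55 and 6.78 CPM in replicates 4, 5 and 6, and 185, 370.0 and 255 CPM in replicates 1, 2 and 3. The sets of intervene overlapped, while libraries 4 to 6 lay below every library 1 to 3 in model and in control. The low control values rest on 190 to 262 counts of Agt a library, so they lie above the range where single counts decide a level. The log2 difference, 4 to 6 minus 1 to 3, was -0.45 ± 0.47 (SE) in intervene, -2.54 ± 0.50 in model and -5.55 ± 0.58 in control, each over 3 and 3 libraries. Fewer astrocytes of one kind and less RNA of a gene per astrocyte cannot be told apart in bulk RNA.

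In libraries 4 to 6, the means of Itih3 and Slc6a11 were ordered intervene, model, control, as for Agt, with smaller differences. Itih3 had 161, 41.0 and 69.0 CPM in intervene 4, 5 and 6, and 94.8, 40.8 and 149 CPM in intervene 1, 2 and 3. It had 47.1, 51.4 and 30.3 CPM in model 4, 5 and 6, and 56.9, 101 and 125 CPM in model 1, 2 and 3. It had 19.0, 18.9 and 23.2 CPM in control 4, 5 and 6, and 69.9, 183 and 94.8 CPM in control 1, 2 and 3. Libraries 4 to 6 of model and of control lay below those numbered 1 to 3, while the intervene sets covered nearly the same range; the log2 differences were -0.07 ± 0.54 in intervene, -1.13 ± 0.55 in model and -2.51 ± 0.57 in control.

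Slc6a11, the most highly counted of the 6 genes, had 458, 227 and 241 CPM in intervene 4, 5 and 6, and 358, 231 and 347 CPM in intervene 1, 2 and 3. It had 164, 205 and 132 CPM in model 4, 5 and 6, and 161, 332 and 421 CPM in model 1, 2 and 3. It had 92.2, 105 and 103 CPM in control 4, 5 and 6, and 397, 541 and 354 CPM in control 1, 2 and 3. Only in control were the sets apart, since model replicate 1 lay among the model libraries 4 to 6. The log2 differences were -0.02 ± 0.33 in intervene, -0.87 ± 0.33 in model and -2.11 ± 0.34 in control. Slc6a11 thus had 92.2 to 105 CPM in the same control libraries where Agt had 4.55 to 6.78 CPM.

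Of the glycine and serine carriers, Slc6a9 had 36.3, 25.8 and 25.9 CPM in intervene 4, 5 and 6, and 35.8, 20.5 and 28.6 CPM in intervene 1, 2 and 3. Its values were 15.9, 19.2 and 15.8 CPM in model 4, 5 and 6, and 27.7, 25.0 and 34.8 CPM in model 1, 2 and 3. In control they were 17.1, 16.7 and 14.6 CPM in replicates 4, 5 and 6, and 27.3, 31.6 and 29.95 CPM in replicates 1, 2 and 3. Unlike Agt, Slc6a9 was about as low in model 4 to 6 as in control 4 to 6, with log2 differences from libraries 1 to 3 of -0.78 ± 0.18 and -0.88 ± 0.18; in intervene the difference was 0.05 ± 0.18. Slc7a10 had the narrowest range, 19.98 to 34.3 CPM over all 18 libraries. Its log2 difference was -0.30 ± 0.13 in intervene, -0.07 ± 0.13 in model and -0.39 ± 0.13 in control, and its sets were apart in intervene and control but overlapped in model.

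Mfge8, the telencephalic member, ran the other way. It had 127, 133 and 139 CPM in intervene 4, 5 and 6, and 103.5, 103 and 116 CPM in intervene 1, 2 and 3. It had 131, 141 and 137 CPM in model 4, 5 and 6, and 119.9, 123 and 111 CPM in model 1, 2 and 3. It had 158, 183 and 193 CPM in control 4, 5 and 6, and 121, 92.9 and 108 CPM in control 1, 2 and 3. Libraries 4 to 6 lay above libraries 1 to 3 in all 3 groups, and the log2 differences were 0.31 ± 0.10 in intervene, 0.21 ± 0.10 in model and 0.73 ± 0.10 in control.

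**Figure D1:**
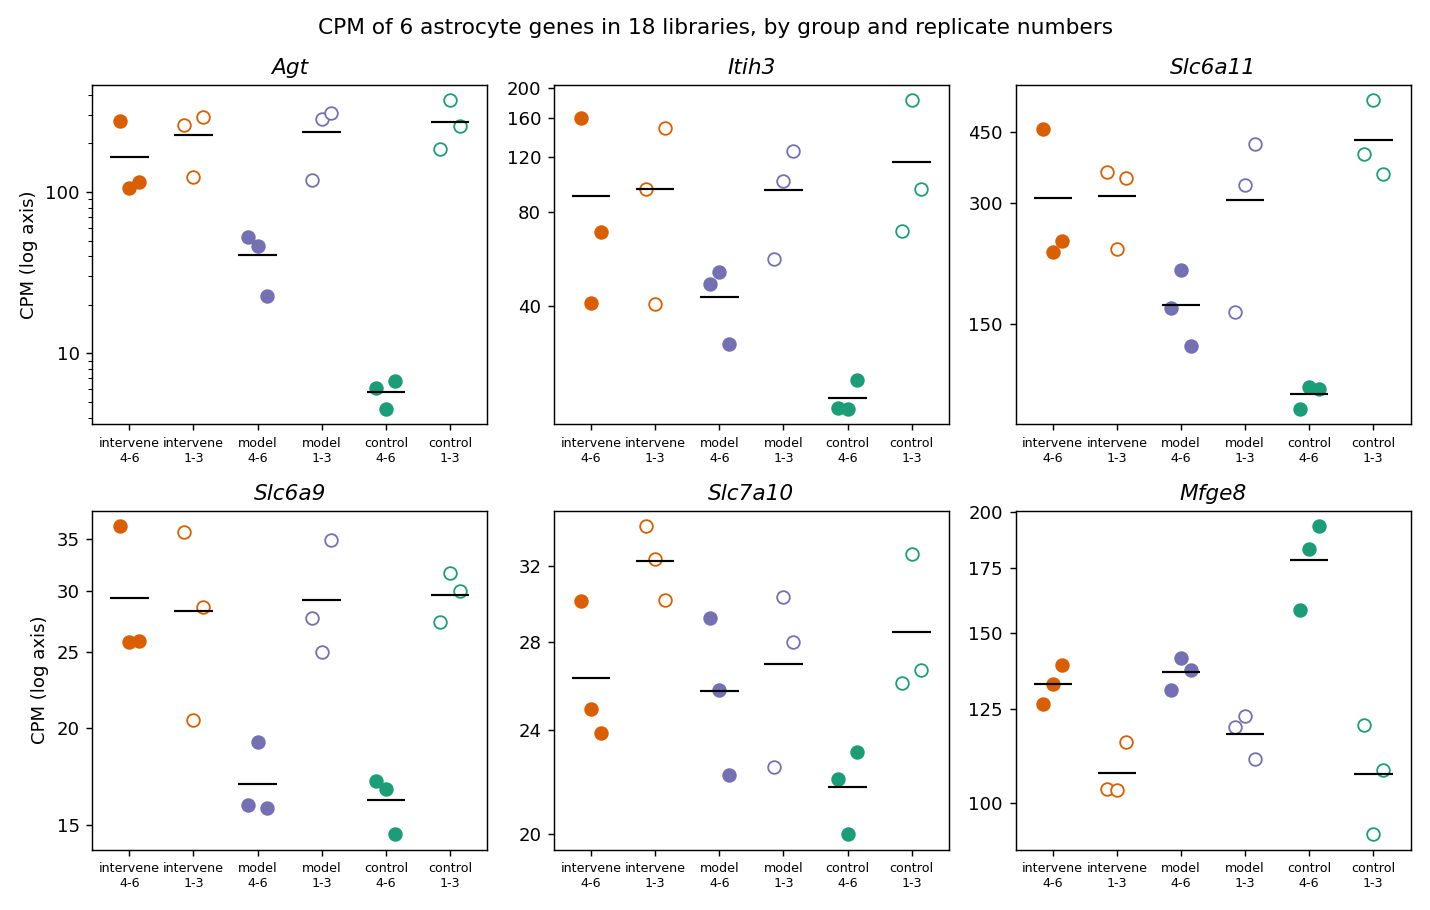
CPM on a log axis for each of the 6 genes in 18 libraries. Points are libraries, filled for replicates 4 to 6 and open for replicates 1 to 3, lines are means of 3 libraries, and each panel has its own axis. Agt spans 4.55 to 370.0 CPM, and Mfge8 is the gene with its highest values in control 4 to 6.

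Taken by sets, 2 of 6 members did not overlap in intervene, 4 of 6 in model and 6 of 6 in control. Among all 19513 genes tested the share without overlap was 30.8% in intervene, 37.1% in model and 51.1% in control. The edgeR test of the same difference called 7.17% of all genes higher and 6.59% lower in intervene 4 to 6 than in intervene 1 to 3, 8.31% higher and 9.15% lower in model, and 17.9% higher and 18.6% lower in control. Since the members were selected on this difference, nothing is read from their count against these shares.

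Each member was also set against the median of the pan-astrocyte markers in the same library, which shifts all members of a library alike. Relative to that median, Agt in libraries 4 to 6 was lower than in libraries 1 to 3 by a log2 difference of -0.64 in intervene, -2.32 in model and -4.97 in control. The same quantity for Itih3 was -0.26, -0.91 and -1.88 in the 3 groups, and for Slc6a11 it was -0.21, -0.59 and -1.57. Mfge8 stood higher relative to the median, by 0.16, 0.40 and 1.25. For Slc6a9 the values were -0.07, -0.59 and -0.36, and for Slc7a10 they were -0.44, 0.12 and 0.13. Against the list's mean in place of its median, Mfge8 had 0.10, 0.18 and 0.93, Slc6a9 had -0.14, -0.81 and -0.68, and Slc7a10 had -0.51, -0.10 and -0.19, so that Slc7a10 changed sign in model and control. Of the 22 pan-astrocyte genes themselves, edgeR called 7 higher and 1 lower in intervene 4 to 6 than in intervene 1 to 3. It called 3 higher and 5 lower in model, and 1 higher and 10 lower in control. Slc1a2, the glutamate transporter GLT-1, was the one higher in control 4 to 6, by 0.87 ± 0.16 (adjusted p = 0.000663). Aqp4, the water channel of astrocyte endfeet, fell by 0.92 there (SE 0.13, adjusted p = 9.02e-05). Slc1a3, the other astrocyte glutamate transporter, differed by 0.17 ± 0.17 in control (adjusted p = 0.457).

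**Figure D2:**
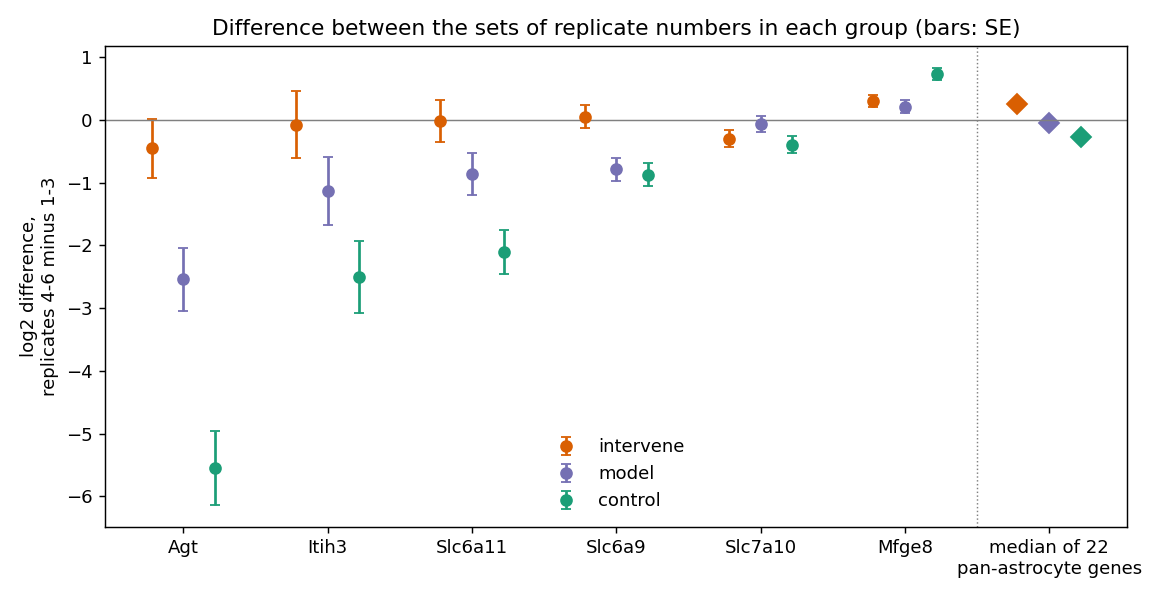
Log2 difference, replicates 4 to 6 minus 1 to 3, with its standard error, for each gene in intervene, model and control. Diamonds give the median difference of the 22 pan-astrocyte genes, and Agt in control, at -5.55, is the lowest point.

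Per length, the order of the members differed between the sets in model and control and was the same in both sets of intervene. In intervene 4 to 6 Agt led with a mean of 41.7 FPKM, followed by Slc6a11 at 36.8, Mfge8 at 29.8, Itih3 at 13.01, Slc7a10 at 5.503 and Slc6a9 at 3.44 FPKM; the libraries of Agt and Slc6a11, of Slc6a11 and Mfge8, and of Itih3 and Slc7a10 overlapped there. In model 4 to 6 the order was Mfge8 at 32.1, Slc6a11 at 20.6, Agt at 10.5, Itih3 at 6.36, Slc7a10 at 5.60 and Slc6a9 at 2.07 FPKM, with Agt and Itih3, and Itih3 and Slc7a10, overlapping. In control 4 to 6 Mfge8 led with 41.95 FPKM and Agt came last with 1.51 FPKM, below Slc6a9 at 1.97 FPKM, and no neighbours overlapped. Libraries 1 to 3 had 1 order in all groups: Agt, Slc6a11, Mfge8, Itih3, Slc7a10, Slc6a9. There Agt averaged 59.0 FPKM in intervene, 61.0 in model and 72.1 in control, and its libraries overlapped with those of Slc6a11 in each group.

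A ratio of 2 members within 1 library is free of the scaling between libraries. The FPKM ratio of Agt to Mfge8 was 0.872 to 2.38 in intervene 4 to 6 and 1.33 to 2.78 in intervene 1 to 3. In model it was 0.183 to 0.441 in libraries 4 to 6 and 1.09 to 3.04 in libraries 1 to 3, and in control 0.0274 to 0.0424 and 1.69 to 4.39. Agt thus exceeded Mfge8 in 9 of 9 libraries 1 to 3 and in 1 of 9 libraries 4 to 6, intervene replicate 4. The mean log2 ratio differed between the sets by -0.81 in intervene, -2.72 in model and -6.24 in control. For Slc6a11 over Mfge8 the differences were -0.37, -0.99 and -2.82, and for Itih3 over Mfge8 they were -0.42, -1.31 and -3.13. The ratio of the glycine transporter Slc6a9 to Slc7a10 differed by 0.37, -0.71 and -0.49.

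**Figure D3:**
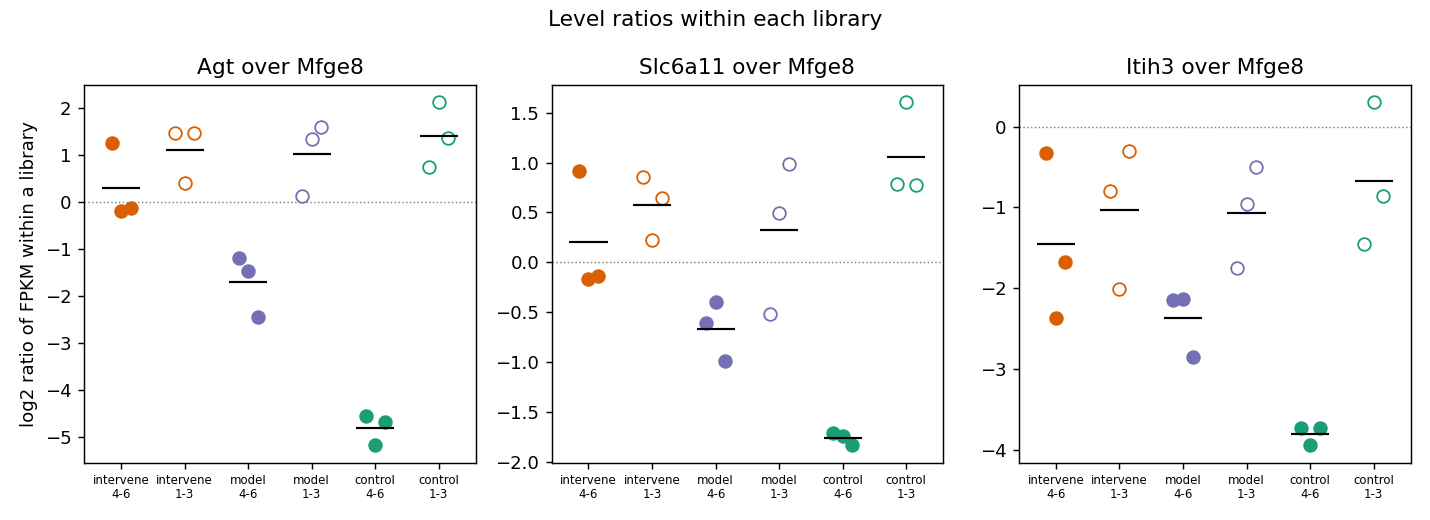
Log2 ratio of FPKM of Agt, Slc6a11 and Itih3 to Mfge8 within each library, by group and set, with lines at the mean of 3 libraries. A value of 0 means equal levels per length. The control libraries 4 to 6 are lowest in each panel, with an Agt ratio of 0.0274 to 0.0424 before the log.

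Promoter sequences are shown for the 3 members with the largest differences between the sets in control, Agt, Itih3 and Slc6a11, and for Mfge8, the telencephalic member, which was higher, to show what surrounds their starts. RefSeq promoters of build GRCm38.p6, from 250 bases before to 50 after the start, were found for 6 of 6 members. This build differs from the one the reads were referred to and is used for sequence only. Agt lies at chr8:124569657-124569956 on the minus strand, Itih3 at chr14:30923538-30923837 on the minus strand, Slc6a11 at chr6:114130991-114131290 on the plus strand and Mfge8 at chr7:79149011-79149310 on the minus strand. Sequences run 5′ to 3′ on the gene's strand, and capitals mark the matches described next.
Agt: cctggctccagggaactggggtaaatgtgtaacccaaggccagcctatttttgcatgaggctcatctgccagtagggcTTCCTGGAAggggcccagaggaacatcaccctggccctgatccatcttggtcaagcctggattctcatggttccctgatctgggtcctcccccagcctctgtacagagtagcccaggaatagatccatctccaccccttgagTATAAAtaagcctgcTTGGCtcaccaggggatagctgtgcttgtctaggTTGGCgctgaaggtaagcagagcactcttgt
Itih3: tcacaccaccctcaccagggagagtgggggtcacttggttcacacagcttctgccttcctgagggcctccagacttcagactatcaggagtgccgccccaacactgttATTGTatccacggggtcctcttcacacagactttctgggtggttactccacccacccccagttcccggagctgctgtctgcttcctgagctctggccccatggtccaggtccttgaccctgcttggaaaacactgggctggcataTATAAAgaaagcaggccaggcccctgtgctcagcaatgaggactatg
Slc6a11: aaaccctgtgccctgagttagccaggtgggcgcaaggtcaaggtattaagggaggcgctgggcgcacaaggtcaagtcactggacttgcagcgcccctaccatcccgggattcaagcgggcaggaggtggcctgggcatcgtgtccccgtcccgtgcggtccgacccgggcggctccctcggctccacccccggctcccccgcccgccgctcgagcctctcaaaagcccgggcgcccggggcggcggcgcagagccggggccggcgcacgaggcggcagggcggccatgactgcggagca
Mfge8: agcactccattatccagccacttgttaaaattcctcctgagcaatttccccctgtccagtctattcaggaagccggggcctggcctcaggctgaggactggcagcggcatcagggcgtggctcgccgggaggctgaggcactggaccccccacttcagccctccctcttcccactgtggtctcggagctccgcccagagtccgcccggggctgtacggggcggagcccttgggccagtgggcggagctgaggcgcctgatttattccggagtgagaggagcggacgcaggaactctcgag

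The motifs searched on both strands were the short nuclear factor I site TTGGC, the full palindromic nuclear factor I site, the SOX core ACAAT, the LHX2 homeobox core TAATTA, the TCF/LEF core CTTTGA, the STAT site TTCNNNGAA, the glucocorticoid receptor core ACANNNTGT and the TATA box TATAAA. The full nuclear factor I site contains the short one, and no other marked matches overlapped. Agt, which is known to carry a TATA box and acute-phase elements, held TATAAA at position -30, counting the start base as 1 and the base before it as -1, TTGGC at -15 and 20, and the STAT letters at -172. Itih3 held TATAAA at 4 and the SOX core on the minus strand at -142. Slc6a11, Mfge8 and Slc7a10 held none of the 8 motifs in this window. For Slc6a9, which has 3 start sites in the table, TTGGC stood at -15 of the first and at -41 and 44 of the third. Over all 32851 promoters the share with a match was 46.7% for the short nuclear factor I site, 0.0365% for the full site, 31.0% for SOX, 5.29% for LHX2, 16.0% for TCF/LEF, 8.30% for STAT, 6.85% for the glucocorticoid core and 13.6% for TATAAA. The members also differed in base composition: GC content was 54.7% with 1 CpG in Agt and 57.0% with 3 CpG in Itih3, against 72.3% with 32 CpG in Slc6a11, 70.7% with 24 in Slc7a10 and 64.3% with 17 in Mfge8. The median of all promoters was 52.7% GC and 7 CpG. A match is a run of letters, not evidence of a bound factor.

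Between treatment groups, Agt was the member whose level passed the test, and it did so in intervene against control. These comparisons average the differences of the 2 sets, so that the sets weigh equally. They use the libraries on which the genes were chosen, the low values of control 4 to 6 included, so their p-values place the members within the fit over all genes and are no independent evidence. Over all 6 libraries Agt averaged 195 ± 88.7 CPM in intervene, 139 ± 126 CPM in model and 138 ± 156 CPM in control (SD, n = 6 each). In intervene against control it was higher by 2.29 ± 0.36 on the log2 scale, a fitted 4.89-fold, with an adjusted p of 0.0042 by edgeR's quasi-likelihood test with Benjamini-Hochberg adjustment. That made 1 of 6 members called higher and 0 lower, where 4.62% of all genes were called higher and 1.12% lower. The median log2 difference was 0.49 over the members and 0.01 over all genes tested. The call rests on libraries 4 to 6: with replicates 1 to 3 alone in the fit the difference was -0.28 (adjusted p = 0.930), and with no set term it was 0.50 (adjusted p = 0.882).

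The other 5 members did not pass in intervene against control. Slc6a9 differed by 0.40 ± 0.13 (adjusted p = 0.0759), Mfge8 by -0.21 ± 0.07 (adjusted p = 0.0884) and Slc6a11 by 0.58 ± 0.24 (adjusted p = 0.169). Itih3 differed by 0.93 ± 0.39 (adjusted p = 0.179) and Slc7a10 by 0.23 ± 0.10 (adjusted p = 0.169). DESeq2 called 3 of 6 members, with Slc6a9 and Mfge8 beside Agt, at adjusted p of 0.0462 and 0.0435, where it called 9.7% of all genes with an adjusted p.

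In intervene against model 0 of 6 members were called, where 0.22% of all genes were called higher and 0.0102% lower. Agt differed by 0.98 ± 0.34 (adjusted p = 0.263), Slc6a9 by 0.37 ± 0.13 (adjusted p = 0.240) and Slc6a11 by 0.46 ± 0.24 (adjusted p = 0.462). Itih3 had 0.54 ± 0.38, Slc7a10 0.15 ± 0.10 and Mfge8 -0.09 ± 0.07, and the median over the members was 0.42, against 0.00 over all genes. At an unadjusted p under 0.05, Agt and Slc6a9 were the members that passed, with p of 0.0123 and 0.00943, where 2349 genes, 12% of all, did. DESeq2 called none of the members and 1.65% of all genes.

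In model against control 0 of 6 members were called, and 0.0% of all genes were called higher and 0.0% lower by edgeR, with 1049 genes (5.38%) at an unadjusted p under 0.05 and 36 (0.185%) called by DESeq2, none of them a member. Agt had the largest difference of the members, 1.31 ± 0.35 (unadjusted p = 0.00224, adjusted p = 0.692), the 1 member under 0.05 before adjustment, and the other 5 lay between -0.12 and 0.39. The members' median was 0.10, against 0.01 over all genes. The 3 group comparisons share libraries, so they are not separate observations.

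The group differences within each set are given as a description, with no test, since the genes were chosen on the sets. Within libraries 4 to 6, intervene minus control was 4.84 ± 0.57 for Agt, 2.15 ± 0.57 for Itih3, 1.63 ± 0.34 for Slc6a11, 0.86 ± 0.18 for Slc6a9, 0.28 ± 0.13 for Slc7a10 and -0.42 ± 0.10 for Mfge8. All 6 members lay apart in that comparison, 5 above and Mfge8 below, where 41.2% of all genes did. Within libraries 1 to 3 the same differences were -0.26 ± 0.47 for Agt, -0.28 ± 0.54 for Itih3, -0.47 ± 0.33 for Slc6a11, -0.07 ± 0.18 for Slc6a9, 0.18 ± 0.13 for Slc7a10 and 0.00 ± 0.10 for Mfge8. None of the 6 lay apart there, where 13.6% of all genes did.

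Intervene minus model within libraries 4 to 6 was 2.02 ± 0.49 for Agt, 1.07 ± 0.55 for Itih3, 0.89 ± 0.33 for Slc6a11 and 0.79 ± 0.18 for Slc6a9. It was 0.03 ± 0.13 for Slc7a10 and -0.04 ± 0.10 for Mfge8. Agt, Slc6a11 and Slc6a9 lay apart, 3 of 6 members, where 27.4% of all genes did. In libraries 1 to 3 the differences ran from -0.13 for Mfge8 to 0.26 for Slc7a10, and 0 of 6 lay apart, where 8.53% of all genes did.

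Model minus control within libraries 4 to 6 was 2.82 ± 0.53 for Agt, 1.08 ± 0.55 for Itih3, 0.74 ± 0.33 for Slc6a11 and -0.38 ± 0.10 for Mfge8. Those 4 of 6 members lay apart, where 19.3% of all genes did. Slc6a9 differed by 0.07 ± 0.18 and Slc7a10 by 0.25 ± 0.13. In libraries 1 to 3 the differences ran from -0.50 for Slc6a11 to 0.14 for Mfge8, and 0 of 6 lay apart, where 9.96% of all genes did. Agt thus had 3 separate ranges in libraries 4 to 6, highest in intervene, lower in model and lowest in control, and 3 overlapping ranges in libraries 1 to 3.

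**Figure D4:**
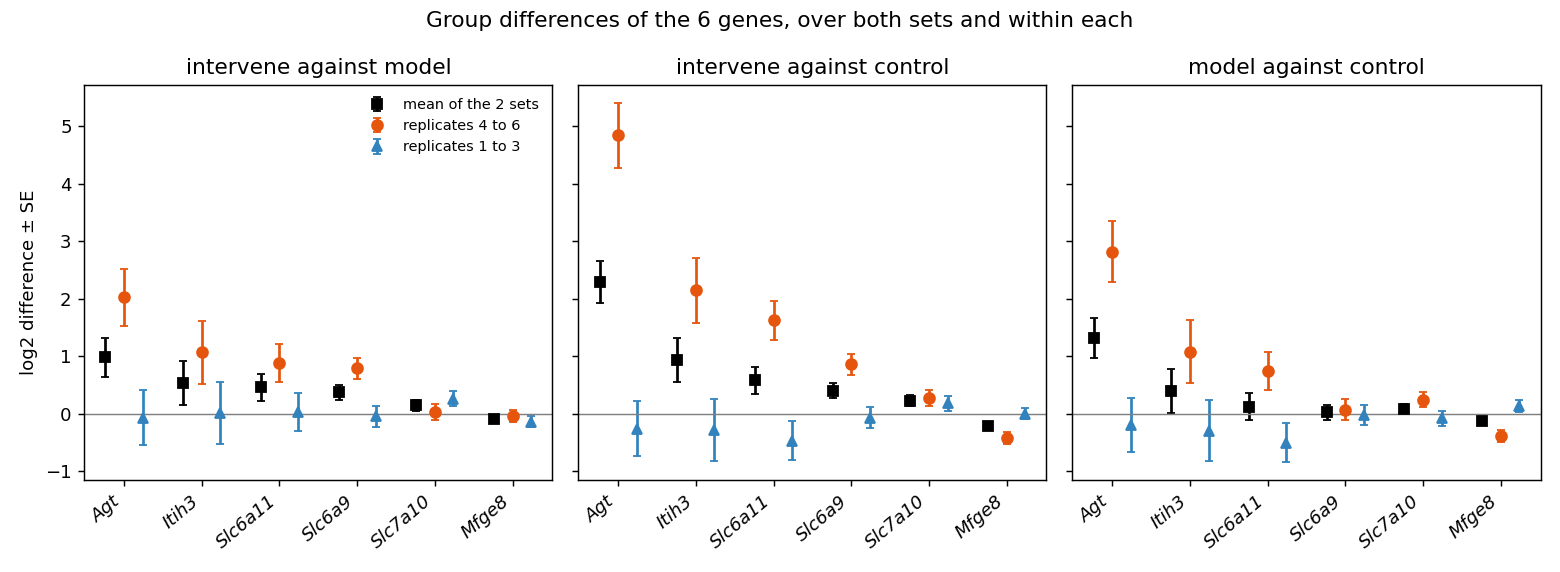
Log2 differences with standard errors for the 6 genes in intervene against model, intervene against control and model against control. Squares average both sets, circles are replicates 4 to 6 alone and triangles replicates 1 to 3 alone. For Agt in intervene against control the 3 values are 2.29, 4.84 and -0.26.

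Markers of some brain regions also differed between the groups. Their lists were chosen with earlier results of these data known, so the calls describe these libraries and are no independent evidence. Of all genes tested, 4.62% were called higher and 1.12% lower in intervene against control over both sets. Whether a list differs from these shares was not tested. In intervene against control over both sets, 5 of 8 non-telencephalic factors were called higher, among them Irx1 at 1.82 ± 0.26 (adjusted p = 0.00118) and Sparc, a secreted matrix protein, at 1.09 ± 0.27 (adjusted p = 0.0326). The 12 thalamic neuron markers held 7 called higher and none lower, with Tcf7l2 at 1.42 ± 0.24 (adjusted p = 0.00538), and 8 of 9 choroid plexus markers were called higher. Within libraries 1 to 3, edgeR called 0 of 19513 genes in intervene against control. There 12 of 12 thalamic markers and 6 of 8 non-telencephalic factors had negative differences, with medians of -0.38 and -0.33. The 9 choroid plexus markers were all positive there. The median difference was -0.07 over 7 telencephalic, -0.19 over 12 cortical and hippocampal, -0.37 over 9 striatal and 2.5 over 12 hypothalamic markers, with no gene of these lists past the edgeR test. The summed CPM of the thalamic list was 488 to 696 in intervene 4 to 6, 182 to 297 in model 4 to 6 and 135 to 154 in control 4 to 6. In libraries 1 to 3 it was 651 to 715 in intervene, 518 to 940.3 in model and 795 to 946 in control. The non-telencephalic list summed to 928 to 1792 CPM in intervene 4 to 6, 350.0 to 598 CPM in model 4 to 6 and 187 to 220 CPM in control 4 to 6, in the order of Agt. Most of each sum was Sparc, at 684 to 1690 CPM in intervene 4 to 6, 315 to 494 CPM in model and 177.5 to 197.5 CPM in control. The median log2 CPM of the list, which weighs its genes alike, averaged 2.74, 0.77 and -0.35 in these libraries. The cortical and hippocampal list ran from 2283 to 3973 CPM in intervene 4 to 6, 4136 to 4559 CPM in model 4 to 6 and 5369 to 5751 CPM in control 4 to 6. Mfge8 was likewise highest in control 4 to 6, but its intervene and model libraries 4 to 6 overlapped. Markers of other cell types differed as well. Of 9 oligodendrocyte markers 5 were called higher in intervene against control over both sets, among them Mbp, a myelin protein, at 0.64 ± 0.12 (adjusted p = 0.00671). Their summed CPM was 14400 to 16080 in intervene 4 to 6, 8736 to 12330 in model 4 to 6 and 7269 to 8063 in control 4 to 6, against 15830 to 22630 in libraries 1 to 3 of the 3 groups. The choroid plexus list summed to 128.5 to 4120 CPM in intervene 4 to 6, 61.5 to 113 CPM in model 4 to 6 and 4.62 to 7.71 CPM in control 4 to 6. In libraries 1 to 3 it was 91.6 to 10460 CPM in intervene, 3349 to 5660 CPM in model and 56.8 to 752 CPM in control. The part of the tissue's regional and cellular make-up in the members' group differences was not tested.

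Between the sets the same lists split in direction. The sets were noticed and the lists chosen with earlier results of these data known. These calls therefore describe the sets and are no independent evidence. Of all genes tested, 7.17% were called higher and 6.59% lower in intervene 4 to 6, 8.31% and 9.15% in model, and 17.9% and 18.6% in control. In control 4 to 6 against control 1 to 3, 7 of 8 non-telencephalic factors, 9 of 12 thalamic and 11 of 12 hypothalamic markers were lower, while 3 of 7 telencephalic factors (Emx1, Emx2 and Lhx2) and 8 of 12 cortical and hippocampal markers were higher. In model, 4 of 8 non-telencephalic and 8 of 12 thalamic markers were lower and 8 of 9 striatal markers higher. In intervene the 8 non-telencephalic factors had a median difference of -0.03, and Tcf7l2, at -1.07 ± 0.33 (adjusted p = 0.0421), was the 1 thalamic marker called lower. Oligodendrocyte markers were lower in libraries 4 to 6 of each group, 4 of 9 in intervene, 7 of 9 in model and 8 of 9 in control, and choroid plexus markers were lower in model (5 of 9) and control (3 of 9). In intervene, 5 of 8 endothelial and 7 of 11 mural and fibroblast markers were also lower in libraries 4 to 6. Of 20 reactive astrocyte markers 9 were lower in model 4 to 6 and 8 in control 4 to 6, while in intervene 3 were higher and 1 lower. Gfap, the intermediate filament of reactive astrocytes, differed by -1.32 ± 0.26 in model (adjusted p = 0.00420) and -1.47 ± 0.26 in control (adjusted p = 0.000544), against -0.12 ± 0.25 in intervene (adjusted p = 0.794). In intervene against control over both sets 15 of 20 reactive markers and 4 of 22 pan-astrocyte markers (Aqp4, Sox9, Atp1b2 and S100b) were called higher, with Gfap at 1.35 ± 0.18 (adjusted p = 0.00113). Within libraries 4 to 6, 14 reactive and 11 pan-astrocyte markers were called higher and 1 pan-astrocyte marker lower. Within libraries 1 to 3, edgeR called 0 genes of either list and 0 of 19513 genes tested. The median difference there was 0.65 over the reactive and 0.00 over the pan-astrocyte list.

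**Figure D5:**
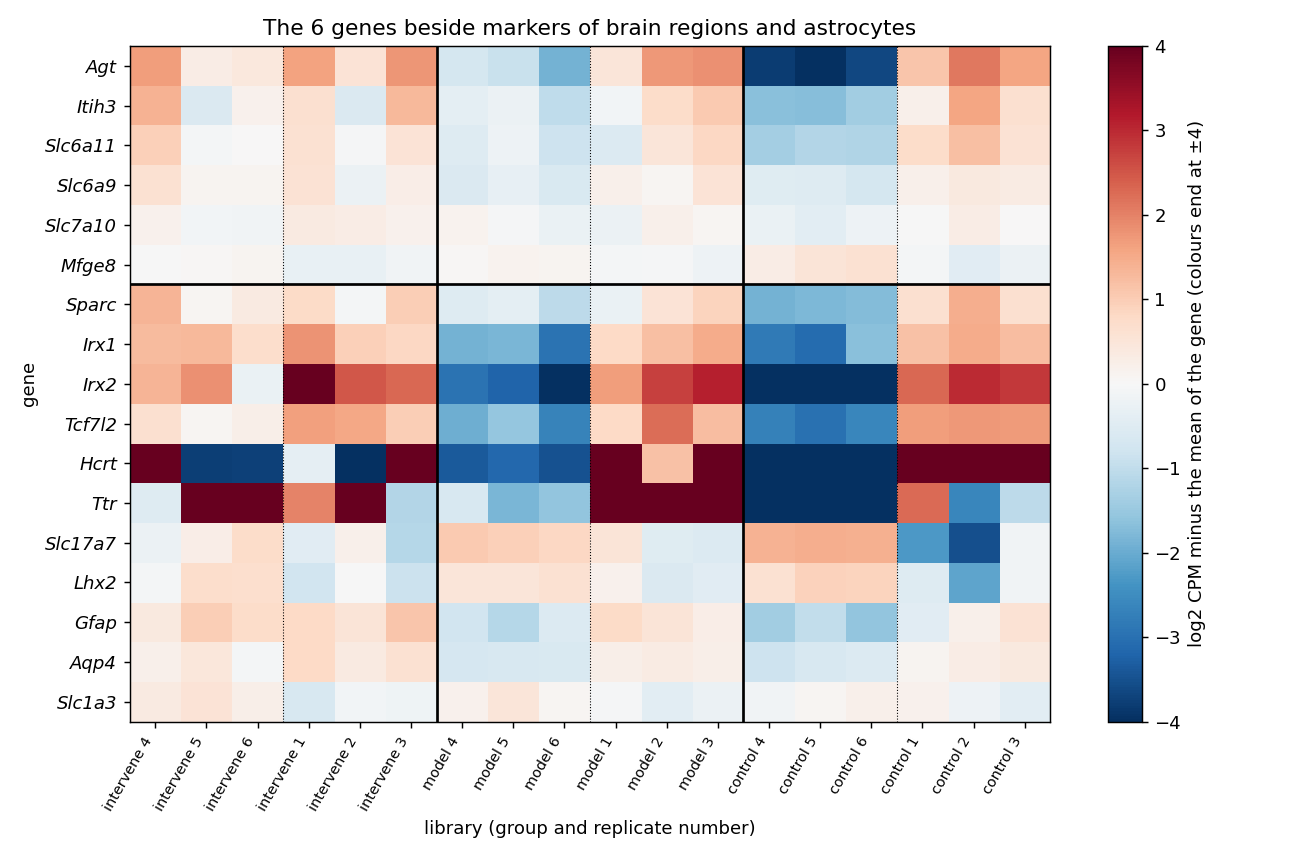
Log2 CPM minus the mean of each gene in 18 libraries, grouped as intervene, model and control with replicates 4 to 6 left of 1 to 3. The 6 members are above the line and markers of regions and astrocytes below it. Agt, Irx1, Irx2 and Tcf7l2 are lowest in model and control 4 to 6, where Slc17a7 is high, with up to 1673 CPM in control.

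Partners of each member were counted from lists by function. Of all genes tested, 4.62% were called higher and 1.12% lower in intervene against control. Between the sets the shares higher and lower were 7.17% and 6.59% in intervene, 8.31% and 9.15% in model, and 17.9% and 18.6% in control. Whether a partner list differs from these shares was not tested. Within libraries 1 to 3, edgeR called 0 of 19513 genes in intervene against control, partners included. No link of a partner to a member is read from a call here or in the lists that follow. Of 14 renin-angiotensin genes 11 were tested, since Ren1, Agtr1b and Cma1 did not pass the filter. Ace, the enzyme that makes angiotensin II, was the 1 gene called in intervene against control, at 1.56 ± 0.33 (adjusted p = 0.0171). It had 16.1 to 41.6 CPM in intervene 4 to 6 and 6.38 to 8.95 CPM in control 4 to 6. Its highest value, 70.6 CPM, stood in intervene replicate 2, which also had the most Ttr, the leading choroid plexus transcript, at 10060 CPM. Between the sets Ace differed by -1.96 ± 0.47 in model (adjusted p = 0.0141), where Mme, a peptidase, was higher by 1.19 ± 0.34 (adjusted p = 0.0254). In intervene, Atp6ap2, the prorenin receptor, differed by -0.65 ± 0.12 (adjusted p = 0.00426) and Prep, a peptidase, by 0.43 ± 0.14 (adjusted p = 0.0492). Agtr2, an angiotensin II receptor, was the 1 gene called in control, at -2.53 ± 0.52 (adjusted p = 0.00147). It was scarce, at 0.193 to 0.417 CPM in control 4 to 6 and 1.37 to 2.65 CPM in control 1 to 3.

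Of 18 genes of GABA and glycine transport and breakdown, Maob, a monoamine oxidase abundant in astrocytes, was the 1 called in intervene against control, at 0.36 ± 0.10 (adjusted p = 0.0372). Maob had 50.35 to 54.4 CPM in intervene 4 to 6 and 26.8 to 36.1 CPM in control 4 to 6. Its libraries 1 to 3 overlapped, at 39.7 to 48.6 CPM in intervene and 39.55 to 50.4 CPM in control. Between the sets 9 of 18 were lower in control and none higher, among them Gad2, a GABA-synthesising enzyme, at -1.11 ± 0.28, Abat, the GABA transaminase, at -0.68 ± 0.18, and Gcsh, part of the glycine cleavage system, at -0.47 ± 0.13 (adjusted p = 0.00693, 0.0069 and 0.00959). Among all genes, 18.6% were lower and 17.9% higher in control 4 to 6. In model 1 was lower, the glycine receptor gene Glra1, and in intervene 4 were lower, among them the transporter Slc6a13 at -1.998 ± 0.49 (adjusted p = 0.0162).

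Of 14 genes of serine and small neutral amino acids, Phgdh, which starts serine synthesis and is an astrocyte enzyme in brain, was called in intervene against control, at 0.31 ± 0.07 (adjusted p = 0.0139). Between the sets in control, Srr, the serine racemase, was higher by 0.68 ± 0.20 (adjusted p = 0.0129), as was Slc7a8, and Phgdh, Slc38a1 and Dao were lower. That made 2 of 14 higher and 3 lower, where 17.9% of all genes were higher and 18.6% lower. Slc38a1, an amino acid carrier, and Dao, which breaks down D-serine, were also lower in model 4 to 6 and in intervene 4 to 6, where Slc7a5 was lower and Slc3a2 and Shmt2 were higher. Dao was scarce, with means of 0.384 CPM in intervene, 0.0988 in model and 0.0551 in control libraries 4 to 6. Its means in libraries 1 to 3 were 3.40, 1.88 and 2.04 CPM. Of 9 tested among 13 genes of the inter-alpha-trypsin inhibitor and hyaluronan list, Tnfaip6, the enzyme that moves heavy chains such as that of Itih3 onto hyaluronan, was called in intervene against control, at 0.47 ± 0.12 (adjusted p = 0.0343). Between the sets Tnfaip6 was lower in model (-0.90 ± 0.18, adjusted p = 0.00358) and in control (-0.99 ± 0.18, adjusted p = 0.000483), as Itih3 was in its values. Hapln1 and Hapln4, link proteins of hyaluronan nets around neurons, were higher in control 4 to 6 and Itih5, another heavy-chain family gene, lower. In intervene 4 to 6 Itih2, Itih5 and Bcan, a proteoglycan that binds hyaluronan, were lower.

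Of 12 tested among 13 genes of phosphatidylserine bridging and engulfment, Pros1, a bridging ligand, and Dock1, which acts in engulfment inside the cell, were called higher in intervene against control, by 0.42 ± 0.10 (adjusted p = 0.0207) and 0.31 ± 0.07 (adjusted p = 0.0218). Pros1 averaged 15.5 CPM in intervene and 10.05 CPM in control libraries 4 to 6, and 16.4 and 14.1 CPM in libraries 1 to 3. Dock1 averaged 22.5 and 15.2 CPM in libraries 4 to 6, and 21.75 and 20.8 CPM in libraries 1 to 3. Both were lower in control 4 to 6 than in control 1 to 3, as was the engulfment receptor Megf10, at -0.55 ± 0.10 (adjusted p = 0.000806). Mertk and Tyro3, receptors of the bridging ligands, and Itgav, a subunit of the integrin that binds lactadherin, were higher there, by 1.08 ± 0.15, 1.31 ± 0.27 and 0.71 ± 0.14 (adjusted p = 8.11e-05, 0.00199 and 0.00114). Mertk had 45.2 to 51.0 CPM in control 4 to 6 and 18.8 to 28.9 CPM in control 1 to 3. In model, Mertk and Itgav were likewise higher in libraries 4 to 6, by 0.69 ± 0.15 and 0.43 ± 0.14, and Megf10, Edil3, Gas6 and Dock1 lower; in intervene Megf10 and Edil3 were lower. Over both sets, the medians of these 5 partner lists lay between -0.04 and 0.07 in intervene against model and between -0.06 and 0.07 in model against control, with no gene past the edgeR test.

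Genes with the most similar course were named by the smallest root mean square difference of mean-centred log2 CPM over 18 libraries, among 13778 genes. Nearest to Agt were Sncg (0.34), Igsf1 (0.42) and Uncx (0.50). Sncg averaged 33.3 ± 7.23 CPM in intervene 4 to 6, 8.30 ± 2.33 CPM in model 4 to 6 and 1.92 ± 0.46 CPM in control 4 to 6, against 54.2 to 68.6 CPM in libraries 1 to 3 of the groups (SD, n = 3). Nearest to Itih3 was Sparc (0.27), followed by Resp18 and Vat1; Sparc averaged 1071 ± 542 CPM in intervene 4 to 6 and 188 ± 10.01 CPM in control 4 to 6. Slc6a11 was nearest to Tox2 (0.17), Exoc3l4 and Grb10, and Slc6a9 to Lbh (0.13), Kcnj10 and Adgrg1. Mfge8 was nearest to Trub1 (0.12), Sgsm2 and Zfr, and Slc7a10 to Rmi1 (0.11), Gcsh and Tmco1. Genes that vary little resemble each other by this measure, so the small values of Mfge8 and Slc7a10 go with their narrow ranges. Among the members the closest pairs were Slc6a9 and Slc7a10 (0.35) and Slc6a11 and Itih3 (0.38), and Agt and Mfge8 were the farthest apart (2.27).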

How the data were processed

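HISAT2, featureCounts and GRCm39 are the tools and build named, without versions, per the submitters' processing notes. The authors deposited raw counts per gene and FPKM, which equal the counts divided by gene length and library total. The tests on all 18 libraries used edgeR 4.0.16 under R 4.3.3 (quasi-likelihood F test, robust, TMM, filterByExpr, 1 mean for each group and set, Benjamini-Hochberg adjustment over 19513 genes, threshold 0.05). Standard errors come from the F statistic, and log2 CPM use a prior count of 2. The members and the 19 gene lists were chosen with earlier results of these data known, and the sets of replicate numbers were noticed then. Members therefore have p-values only in comparisons averaged over the sets, which use the same libraries, although tests within and between sets had been planned. Genes of the lists keep p-values between the sets, which describe these libraries and are no independent evidence. FPKM and within-library ratios are descriptions. The named genes are the 6 members, 3 genes of similar course for each (mean of at least 1 CPM, no predicted-gene or clone names), up to 4 genes a marker list by p, and partner genes that passed; some of these names are left unprinted, and the TATA box was added to the motifs later. No 2 libraries of a group agreed within sampling noise (smallest chi-square per degree of freedom 11.4). The tests were checked on simulated data with equal means in both sets and known changes added to the intervene group. Differences between the sets, which the real libraries show, were not simulated, so the check does not cover them. Alternatives covered scaling, filter, test, unit, covariates and each library left out; DESeq2 1.42.0 and limma 3.58.1 were used there. Reads shared by overlapping or similar genes can be divided uncertainly, and the labels do not say whether counting used strand.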

Additional observations from a re-analysis of the deposited data

How the results depend on the processing

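Agt in intervene against control kept its direction and call in 26 of 28 alternatives (log2 difference 1.81 to 2.44, adjusted p 7.13e-09 to 0.0203), and lost the call with no set term and with replicates 1 to 3 alone, a setting added after seeing the data. The alternatives that kept the call all kept the sets in the fit, with all or most of libraries 4 to 6. Agt was chosen with the low control values of those libraries known, so that agreement is no independent evidence. Members called there numbered 1, against 3 with DESeq2, 0 with no set term, 0 with replicates 1 to 3 alone and 1 to 2 over the left-out libraries; without control replicate 2 the second was Mfge8. Genes called in that comparison numbered 1120, against 1892 with DESeq2, 472 with limma on FPKM, 719 with only the libraries compared, 0 with no set term, 0 with replicates 1 to 3 alone, and 450 (without control replicate 5) to 1324 (without control replicate 2). In intervene against model 45 became 84 with no filter, 321 with DESeq2, 29 with only the libraries compared, 0 with no set term, 0 with replicates 1 to 3 alone, and 20 (without model replicate 4) to 58 (without model replicate 2). In model against control 0 became 36 with DESeq2, 1 with FPKM, 7 with only the libraries compared, and 0 to 1 over the left-out libraries. Between the sets, 2685 calls in intervene became 1005 with only the libraries compared and 984 (without intervene replicate 6) to 3179 (without intervene replicate 4), and 3407 in model became 1209 (without model replicate 2) to 3764 (without model replicate 1).

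With replicates 1 to 3 alone, signs turned in model against control for Agt (-0.209), Itih3 (-0.312), Slc6a11 (-0.518), Slc6a9 (-0.04), Slc7a10 (-0.098) and Mfge8 (0.119), in intervene against model for Agt (-0.067) and Slc6a9 (-0.045), and in intervene against control for Agt (-0.276), Itih3 (-0.302), Slc6a11 (-0.485) and Slc6a9 (-0.086). In model against control Slc6a11 also turned with no set term (-0.172) and ran from -0.032 to 0.274 over the left-out libraries, and Slc6a9 turned with FPKM (-0.002) and ran from -0.049 to 0.058; none of these passed a test. Against the mean of the pan-astrocyte list, Mfge8 differed by 0.179 in model and 0.933 in control. The causes were not tested.

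No pairing of libraries by equal replicate numbers was seen, though means of 3 libraries leave little room to see it. Deviations from the means of group and set correlated over 0.1 in 3 of 18 pairs (-0.277 to 0.226), and 8 of 36 comparisons placed a library nearest to its own number. Deviations from group means alone, which hold the difference between the sets, correlated over 0.1 in 14 of 18 pairs (-0.131 to 0.594). With a replicate block, calls numbered 917 in intervene against control, 38 in intervene against model and 0 in model against control, and Agt differed by 2.25 (adjusted p = 0.0106). The block could not be fitted for the sets, which are made of replicate numbers. With 3 libraries a set, the SE of Agt between sets was 0.47 to 0.58; the part of depth in it was not tested.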

Other observations

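Agt, Slc6a11 and Itih3 varied between libraries of the same set in intervene, and transcripts of hypothalamic neurons varied beside them. Hcrt, which encodes the orexin peptides of the lateral hypothalamus, and Pmch, which encodes melanin-concentrating hormone, stand for these neurons; they were set beside the members after their values were seen. In intervene the 3 libraries with the most Agt were replicates 3, 4 and 1, at 292.5, 274 and 260.4 CPM, and they had 82.7, 150 and 1.92 CPM of Hcrt and 61.5, 162 and 8.69 CPM of Pmch. Replicates 2, 6 and 5, with 124, 116 and 105 CPM of Agt, had 0, 0.137 and 0.134 CPM of Hcrt and 0.097, 0.376 and 0.403 CPM of Pmch. The same split holds for Slc6a11, with 347 to 458 CPM in the first 3 and 227 to 241 CPM in the others, and for Itih3, with 94.8 to 161 CPM and 40.8 to 69.0 CPM. In control 1 to 3, replicates 2, 3 and 1 had 370.0, 255 and 185 CPM of Agt and 140.1, 107 and 71.1 CPM of Hcrt. Their Pmch was 108.4, 62.68 and 62.89 CPM, which did not separate replicates 3 and 1. Model 1 to 3 did not keep the order of Agt. Replicate 2, with 283 CPM of Agt, had 5.70 CPM of Hcrt and 16.6 CPM of Pmch. Replicate 1, with 119 CPM of Agt, had 45.1 CPM of Hcrt and 28.1 CPM of Pmch.

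Within intervene, the choroid plexus transcript Ttr was ordered differently from Agt. It had 3407 to 3949 CPM in intervene 5 and 6 and 10060 CPM in intervene 2, the 3 intervene libraries with the least Agt, and 64.1 to 564 CPM in intervene 3, 4 and 1.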
